A study of Rattus norvegicus with 48 samples.

Results

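A set of 10 genes of the tumour necrosis factor and NF-κB feedback circuit were followed in rat lungs after inhalation of a mixed particle aerosol. The members were taken by gene name from the deposited tables: Tnf, Nfkb1, Nfkb2, Relb, Nfkbia, Nfkbie, Tnfaip2, Tnfaip3, Birc3 and Bcl3. These 10 genes filled 11 of the 32285 gene rows, because Tnf is listed under 2 identifiers. The 48 samples were pieces of lung from healthy male Sprague-Dawley rats, an outbred strain, 1 library per sample. The exposed rats breathed fracking sand dust (FSD) at 30 mg/m3 together with diesel particles (DEP) at 1 mg/m3, in whole-body chambers, for 6 h on each of 4 days. The air rats breathed filtered air. Lungs were taken 1, 7 or 27 days after exposure, with 8 exposed and 8 air libraries on each day. FSD is the dust shed by the sand that is pumped into wells in hydraulic fracturing. The dust and the diesel particles were always given together, so their effects cannot be told apart. The rats were housed in pairs, and the sources used here do not give their age or which animals shared a cage.

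NF-κB is a family of paired transcription factors that wait in the cytoplasm, bound by inhibitors of the IκB family. When TNF, interleukin-1 or microbial products bind their receptors, the IκB kinase complex marks the inhibitor for destruction and the freed pair enters the nucleus. Many of the genes it then switches on feed back on it: some encode new inhibitors, some encode enzymes that shut the receptor complex down, and some encode NF-κB subunits themselves. Transcripts of these feedback genes are therefore commonly read as a record of NF-κB activity, and in the lung macrophages and airway epithelium are known sources of TNF and NF-κB signalling after particles are inhaled.

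The promoters of the members are shown first, because feedback of this kind is known to run through κB sites, the DNA element that NF-κB binds, near the starts of its targets. RefSeq promoter windows on the GRCr8 build, 250 bases before to 50 bases after the annotated start, were at hand for 8 of the 10 members, and Relb and Birc3 had no entry. The κB consensus, searched on both strands, was found in 6 of these 8 windows and in 4.18% of all 33469 promoter windows of the same length. A looser κB motif, of 3 G, any 5 bases and 2 C, which includes every consensus site, was found in 8 of 8 member windows and in 47.3% of all windows. The windows of Tnf and Tnfaip2 held the looser motif and not the consensus. A match is a description of the letters and not evidence that the site is bound. In the sequences below, written 5′ to 3′ on the strand of the gene, capitals mark the κB consensus on either strand. The Nfkbia window shows the longer context of a site that began 31 bases before the start. The others are 30-base windows around each site.
Nfkbia, chr6:78597073-78597322, minus strand: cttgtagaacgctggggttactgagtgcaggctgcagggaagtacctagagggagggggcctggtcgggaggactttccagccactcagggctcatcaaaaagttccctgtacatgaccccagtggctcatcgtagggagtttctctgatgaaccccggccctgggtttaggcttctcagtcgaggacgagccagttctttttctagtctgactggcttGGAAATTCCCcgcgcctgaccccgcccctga
Nfkb1, chr2:226805440-226805469, minus strand: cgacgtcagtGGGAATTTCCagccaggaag
Nfkb2, chr1:255108344-255108373, plus strand: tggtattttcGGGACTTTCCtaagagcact
Nfkbie, chr9:22948017-22948046, minus strand: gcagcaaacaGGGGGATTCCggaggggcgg
Tnfaip3, chr1:15544130-15544159, minus strand: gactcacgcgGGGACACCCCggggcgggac
Tnfaip3, chr1:15544021-15544050, minus strand: gactGGAAAGTCCCtcGGAAATCCCCctgt
Bcl3, chr1:88613574-88613603, minus strand: tcggcggcagGGGAAGTCCCgcagcccggc
Tnfaip3 held 3 consensus sites, 2 of them in the same 30-base window. The site of Nfkb1 lay just past its annotated start, and the sites of the other 5 genes lay before it.

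Each library held between 9445687 and 14400337 counts, with a median of 12004528. Levels are given as CPM, the counts scaled to a common library size, after TMM scaling. Only Sftpc, Ager, Alb and Myh6 are given here in CPM by library total alone, without TMM. Lung genes were high in all 48 libraries: Sftpc, the surfactant protein of alveolar type 2 cells, ranged from 6532 to 10238 CPM, and Ager, of alveolar type 1 cells, from 1786 to 3175 CPM. The liver gene Alb did not pass 0.432 CPM, whereas the heart muscle gene Myh6 ranged from 0.403 to 157 CPM. In 4 groups, 1 pair of libraries was unusually alike: libraries 1 and 4 of exposed day 1, 3 and 6 of exposed day 7, 1 and 4 of air day 7, and 3 and 6 of air day 27. These 4 pairs differed by 1.45 to 1.66 times counting noise, against at least 2.39 times in the other 164 pairs within groups. All 48 libraries were kept in the tests, since the labels give every library its own animal number. Only for means ± SD was each such pair averaged and counted once, as a caution, which is why n is 7 in those groups. In whole tissue, fewer cells of a type and less RNA per cell cannot be told apart.

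None of the 10 feedback genes differed between exposed and air lungs on any of the 3 days in edgeR's quasi-likelihood test, with Benjamini-Hochberg adjustment over all genes. On day 1 the members passing were 0 of 10, where 0.0279% of 14314 genes passed. On day 7 they were 0 of 10, where 0% of 14259 genes passed. On day 27 they were 0 of 10, where 5.52% of 14192 genes passed. That background of 783 genes became 31 with the alike pairs summed and 9 without exposed library 3 alone. The smallest adjusted p among the members was 0.769 on day 1, 0.449 on day 7 and 0.0997 on day 27. At an unadjusted p under 0.05 the counts were 0 members on day 1, where 8.68% of all genes passed, 1 on day 7 (Tnfaip2), where 8.47% passed, and 1 on day 27 (Nfkb2), where 26.7% passed. In no member, on no day, did all 8 exposed libraries lie apart from all 8 air libraries. The share of all genes with groups apart was not counted, so this is a description only. Fold changes were above 1 for 7 of 10 members on day 1, 5 on day 7 and 3 on day 27. The median log2 fold change of the members was 0.034 on day 1 (0.0019 over all genes), -0.014 on day 7 (-0.00078 over all genes) and -0.067 on day 27 (-0.0081 over all genes).

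The intervals say how large a change the data leave room for. The 95% interval of the fold change lay within 1.5-fold either way for 9 of 10 members on day 1, 8 on day 7 and 9 on day 27. The wide intervals belonged to Tnf and Nfkbia. Across the 3 days the lowest bound was 0.609-fold, for Tnf on day 7, and the highest was 2.11-fold, for Nfkbia on day 7.

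**Figure D1:**
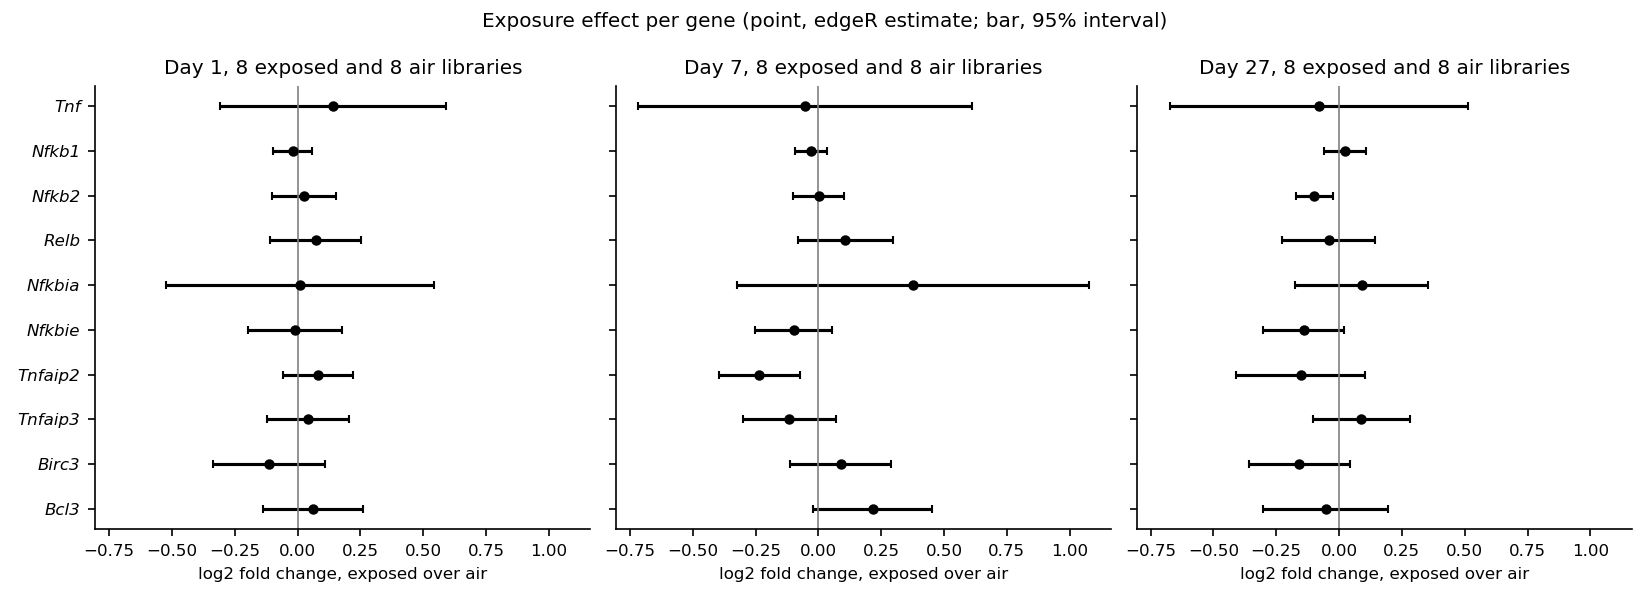
Log2 fold change of each gene, exposed over air, on days 1, 7 and 27 (8 exposed and 8 air libraries each), with the point as edgeR's estimate and the bar as its 95% interval. The bars of Tnfaip2 on day 7 and Nfkb2 on day 27 do not reach 0 before adjustment for all genes tested, and those of Tnf and Nfkbia are the widest on days 1 and 7.

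Tnf, the cytokine that starts the circuit, was low. Its summed counts ranged from 8 to 46 per library. On day 1 it had 0.859, 2.04 and 2.55 CPM (lowest, median and highest) in exposed lungs, against 1.11, 1.56 and 2.41 CPM in air lungs. On day 7 it had 0.647, 2.2 and 3.24 CPM in exposed lungs, against 0.943, 1.99 and 3.19 CPM in air lungs. On day 27 it had 0.723, 2.27 and 3.71 CPM in exposed lungs, against 1.53, 2.45 and 4.38 CPM in air lungs. The groups overlapped over most of their range on each day. The log2 fold change was 0.14 ± 0.22 (SE) on day 1, -0.053 ± 0.32 on day 7 and -0.079 ± 0.28 on day 27. On day 7 the 95% interval ran from 0.609-fold to 1.53-fold, so changes inside that interval were not separable from no change.

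The counts of Tnf moved between its identifiers from library to library. In 29 libraries all Tnf counts were on ENSRNOG00000055156, in 18 they were all on ENSRNOG00000000837, and only air library 2 of day 1 had both, with 8.80 on the first and 8.20 on the second. The first identifier alone was used in 6 exposed and 6 air libraries on day 1, 6 exposed and 3 air libraries on day 7, and 3 exposed and 5 air libraries on day 27. A table read by 1 identifier alone would therefore show Tnf at 0 in many lungs in which the other identifier held counts. The values above are for the sum of both. With ENSRNOG00000055156 alone the log2 fold change was -0.12 on day 1, 0.59 on day 7 and -0.85 on day 27 (adjusted p 0.974, 0.911 and 0.614), so its size and sign depended on the identifier, while no call was made either way.

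**Figure D2:**
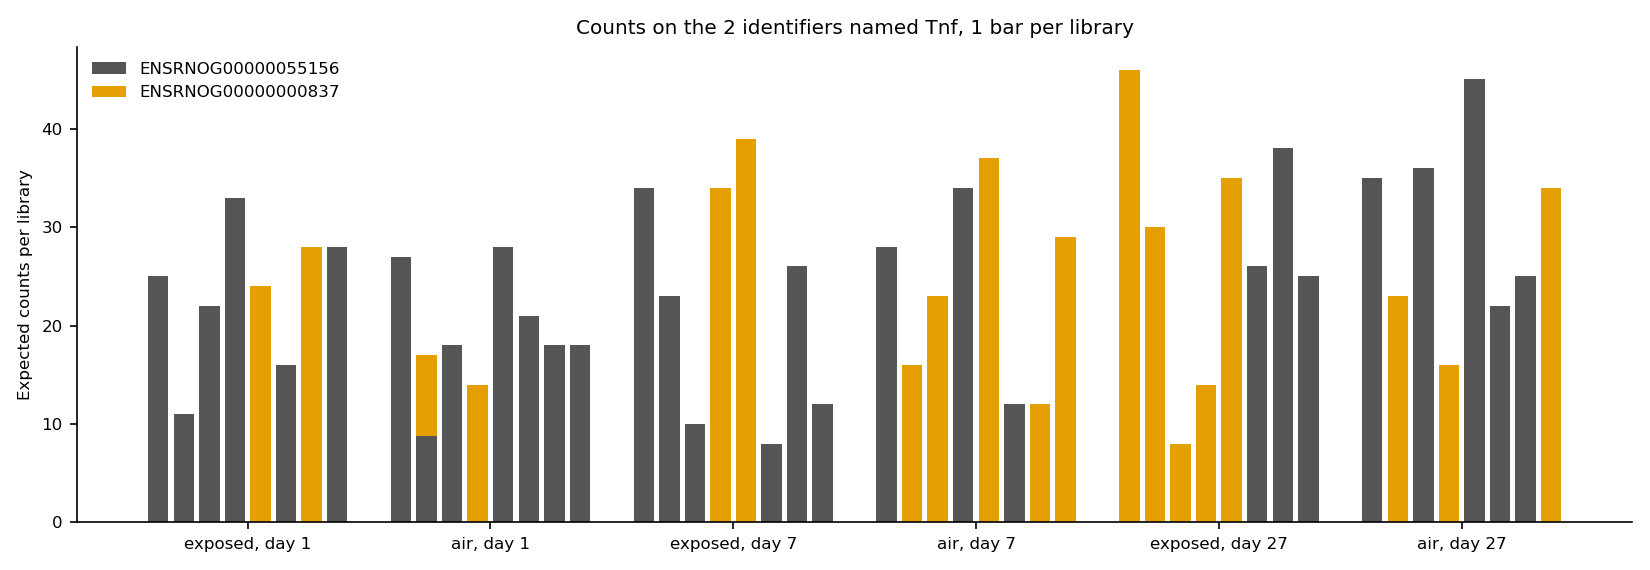
Expected counts of Tnf in each of the 48 libraries, 1 bar per library, with the shading showing which of the 2 identifiers held them. Totals ran from 8 to 46, and 1 bar alone shows both identifiers.

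Nfkb1, the first of the NF-κB subunit genes, was steady. It encodes p105, the precursor of the p50 subunit, and ranged from 138 to 171 CPM over all 48 libraries, a 1.24-fold range, and 2.04% of genes had a smaller within-group SD than its 0.062 (log2). On day 1 it averaged 155 ± 3.64 CPM in exposed lungs (SD, n = 7) and 158 ± 9.36 CPM in air lungs (n = 8), and the 95% interval of the fold change was 0.935 to 1.04. Changes of Nfkb1 beyond about that range on day 1 lie outside the interval. On day 7 the averages were 157.5 ± 5.19 CPM in exposed lungs and 161 ± 4.03 CPM in air lungs (SD, n = 7 each). On day 27 they were 154.5 ± 4.99 CPM in exposed lungs (n = 8) and 151 ± 9.96 CPM in air lungs (n = 7). None of these differences passed the test (adjusted p 0.922, 0.828 and 0.748).

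Nfkb2 encodes p100, the precursor of p52, whose processing is the switch of the non-canonical NF-κB branch. It came nearest to the threshold on day 27. Its level was then 57.2, 60.6 and 65.6 CPM (lowest, median and highest) in exposed lungs, against 62.0, 65.4 and 68.0 CPM in air lungs, and 7 of 8 exposed libraries lay below the air mean. The groups overlapped between 62.0 and 65.6 CPM. The averages were 60.8 ± 2.79 CPM in exposed lungs (SD, n = 8) and 65.3 ± 2.09 CPM in air lungs (n = 7). The log2 fold change was -0.098 ± 0.036 (95% interval -0.17 to -0.022), with an adjusted p of 0.0997 by edgeR's quasi-likelihood test. Leaving out 1 library, exposed library 2, brought the adjusted p to 0.0471, with a log2 fold change of -0.11, and over the 16 such fits the adjusted p ran from 0.0471 to 0.164. Over all 24 alternative fits of that day it ran from 0.0471 to 0.233. On that day, when 5.52% of all genes passed the threshold (783, and 31 with the alike pairs summed), the 8 markers of B cells, in which the non-canonical branch is active, had a summed level of 89.8, 103 and 143 CPM in exposed lungs, against 109, 155 and 263.5 CPM in air lungs, with 0 of 8 above 0 on the log2 scale and 2 past the threshold, both lower. None of the 8 was at 0 in all libraries of that day. Of the T cell markers 0 of 7 were above 0 (1 past the threshold, lower), and of the tested alveolar macrophage markers 0 of 7 (2 past it, lower). The endothelial markers were mixed: of the 6 tested, 2 were above 0 and 4 below, and 2 were past the threshold, both lower. Of the immediate early genes 0 of 9 were above 0, of the lung epithelial markers 1 of 6 and of the neutrophil markers 2 of 8, none past the threshold. Of the glucocorticoid response genes 6 of 8 were above 0 (1 past it, higher). Between libraries of a group, over all 48, Nfkb2 had r = 0.010 and rho = 0.060 with the B cell list and r = 0.010 and rho = 0.014 with the T cell list (two-sided permutation test, p = 0.943, 0.698, 0.944 and 0.93, adjusted p between 0.886 and 0.944). Within groups r ran from -0.365 to 0.478 with the B cell list, highest in exposed lungs of day 27. With the T cell list it ran from -0.725 to 0.358. With the endothelial list Nfkb2 had r = 0.408 and rho = 0.422 (permutation p = 0.00987 and 0.00344, adjusted p 0.079 and 0.0393), and r = 0.433 without the 2 libraries farthest from the median. Within groups that r ran from -0.0056, in air lungs of day 27, to 0.782. The immediate early and lung epithelial lists gave similar values. The list of immediate early genes had r = 0.375 and rho = 0.365 with Nfkb2 (permutation test, adjusted p 0.0389 and 0.0975), and r from -0.572 to 0.845 within groups. The lung epithelial list had r = 0.352 and rho = 0.375 (adjusted p 0.0518 and 0.0742), and r from -0.314 to 0.864 within groups. With the neutrophil, glucocorticoid response and alveolar macrophage lists r was 0.022, 0.137 and 0.170. These relations were taken after subtracting group means, so they cannot speak to the difference of Nfkb2 between exposed and air lungs. The part of these cells and lists in that difference was not tested. On day 1 Nfkb2 averaged 57.9 ± 6.21 CPM in exposed lungs (SD, n = 7) and 57.6 ± 4.15 CPM in air lungs (n = 8), and on day 7 56.2 ± 3.94 CPM in exposed lungs and 56.8 ± 3.85 CPM in air lungs (n = 7 each).

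Relb, the subunit that pairs with p52, ranged from 9.35 to 15.3 CPM over the 48 libraries, and its within-group SD of 0.17 (log2) was close to the median of all genes, also 0.17. Its log2 fold change was 0.073 ± 0.087 on day 1, 0.11 ± 0.091 on day 7 and -0.041 ± 0.088 on day 27, with adjusted p of 0.855, 0.782 and 0.794. On day 1, when it had the third smallest p of the members, it had 10.6, 12.3 and 14.9 CPM in exposed lungs, against 10.4, 12.3 and 13.8 CPM in air lungs, and the ranges nearly coincided.

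**Figure D3:**
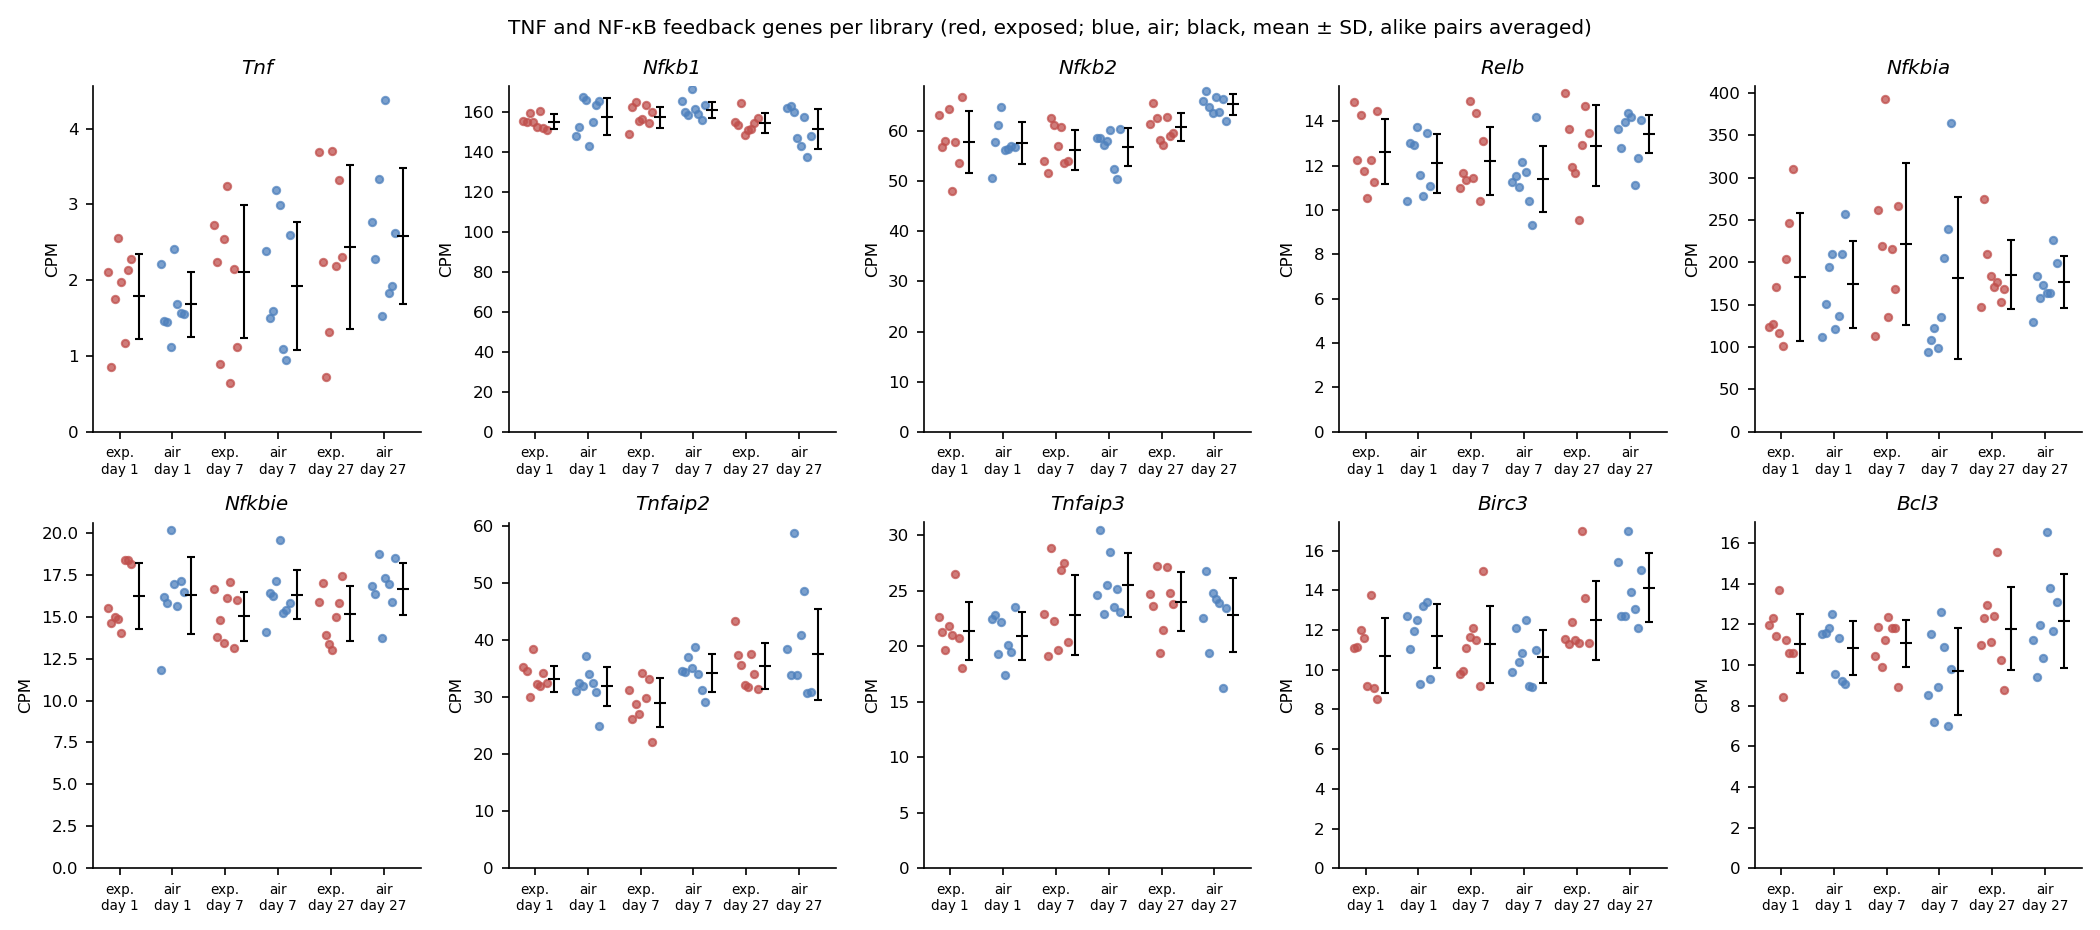
CPM of each gene in every library, in 6 groups per panel (exposed left of air on each day), with black bars for the mean ± SD, alike pairs averaged. Every panel starts at 0, and exposed and air points overlap in all 30 pairs of groups, most widely for Nfkbia, whose libraries run from 94.0 to 393 CPM.

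The IκB inhibitors differed in how much they varied between libraries. Nfkbia encodes IκBα, the inhibitor that NF-κB induces within minutes to end its own signal. It ranged from 94.0 to 393 CPM, a 4.18-fold range, and 90.3% of genes had a smaller within-group SD than its 0.50 (log2). On day 1 it had 102, 149 and 311 CPM (lowest, median and highest) in exposed lungs, against 112, 173 and 257.7 CPM in air lungs. On day 7 it had 113, 217.5 and 393 CPM in exposed lungs, against 94.0, 129 and 364 CPM in air lungs. On day 27 it had 147, 173 and 275.2 CPM in exposed lungs, against 130, 169 and 227 CPM in air lungs. High and low libraries stood in both groups on each day. The day 7 log2 fold change of 0.38 ± 0.33 had a 95% interval of 0.799-fold to 2.11-fold (adjusted p 0.791), so at this spread a doubling of Nfkbia was not separable from no change. Without 1 library of that day in turn, the log2 fold change ran from 0.21 to 0.63. A list of 8 glucocorticoid response genes stood beside it on day 7, with a summed level of 406, 702 and 965 CPM in exposed lungs and 372, 410 and 923 CPM in air lungs and 7 of 8 genes above 0. None of the 8 was at 0 in all libraries or past the threshold on that day. Other lists leaned the same way: 7 of 8 neutrophil markers and 7 of 8 B cell markers were above 0. Above 0 were also 3 of 7 T cell, 2 of 6 endothelial, 1 of 6 lung epithelial and 1 of 7 alveolar macrophage markers and 2 of 9 immediate early genes. The part of any of these lists in the day 7 value was not tested.

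Nfkbie encodes IκBε, a slower inhibitor of the same family. It ranged from 11.8 to 20.2 CPM, and 47.9% of genes had a smaller within-group SD than its 0.16 (log2). Its log2 fold change was -0.011 ± 0.090 on day 1, -0.098 ± 0.074 on day 7 and -0.14 ± 0.077 on day 27, with adjusted p of 0.983, 0.740 and 0.245. On day 7 it had 13.2, 15.4 and 17.1 CPM in exposed lungs, against 14.1, 16.0 and 19.5 CPM in air lungs. Of the 8 exposed libraries of day 7, 6 lay below the air mean. On day 27 Nfkbie had 13.0, 15.4 and 17.4 CPM in exposed lungs, against 13.7, 16.9 and 18.7 CPM in air lungs, and 6 of 8 exposed libraries lay below the air mean. Those ranges overlapped over most of their length.

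Tnfaip3 encodes A20, the ubiquitin-editing enzyme that shuts down the TNF receptor complex. It ranged from 16.3 to 30.4 CPM. It averaged 21.4 ± 2.64 CPM in exposed lungs (SD, n = 7) and 20.9 ± 2.14 CPM in air lungs (n = 8) on day 1. It averaged 22.8 ± 3.59 CPM in exposed lungs and 25.5 ± 2.89 CPM in air lungs (n = 7 each) on day 7, and 24.0 ± 2.64 CPM in exposed lungs (n = 8) and 22.8 ± 3.34 CPM in air lungs (n = 7) on day 27. These differences were smaller than the spread between animals in at least 1 of the groups on each day, and their adjusted p values were 0.921, 0.750 and 0.560.

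Tnfaip2, a TNF-induced gene known for a role in membrane protrusions, had the smallest p of the members on days 1 and 7. On day 7 it had 22.1, 29.3 and 34.3 CPM in exposed lungs, against 29.1, 34.6 and 38.8 CPM in air lungs. The groups overlapped between 29.1 and 34.3 CPM. All 8 exposed libraries lay below the mean of the 8 air libraries. The highest of them, at 34.3 CPM, lay just above the air average of 34.2 CPM that counts the alike pair once. The averages were 29.1 ± 4.27 CPM in exposed lungs and 34.2 ± 3.28 CPM in air lungs (SD, n = 7 each). The log2 fold change was -0.24 ± 0.078 (95% interval -0.40 to -0.074), with an adjusted p of 0.449 by the same test, and over the 16 fits without 1 library the adjusted p ran from 0.185 to 0.641. The 8 listed alveolar macrophage markers summed in the same lungs to 299, 326.5 and 350 CPM in exposed lungs, against 323, 378 and 416 CPM in air lungs. Of the 7 that were tested, 6 were below 0 and 4 passed an unadjusted p under 0.05 (8.47% of all genes did), and Marco, the remaining marker, was at 0 in all 16 libraries. Below 0 on that day were also 7 of 9 immediate early genes, 5 of 6 lung epithelial, 4 of 6 endothelial and 4 of 7 T cell markers. Above 0 were 7 of 8 glucocorticoid response genes, 7 of 8 neutrophil markers and 7 of 8 B cell markers. The part of these lists in the difference of Tnfaip2 between exposed and air lungs was not tested. On day 1 the log2 fold change of Tnfaip2 was 0.082 ± 0.067 (30.1, 33.3 and 38.5 CPM in exposed lungs, against 24.9, 32.2 and 37.3 CPM in air lungs, adjusted p 0.769), and on day 27 it was -0.15 ± 0.12 (adjusted p 0.435).

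Birc3 encodes cIAP2, a ubiquitin ligase recruited to TNF receptors that limits cell death. Its log2 fold change was -0.11 ± 0.11 on day 1, 0.088 ± 0.097 on day 7 and -0.16 ± 0.096 on day 27 (adjusted p 0.812, 0.845 and 0.296). On day 1 it had 8.53, 11.1 and 13.7 CPM in exposed lungs, against 9.28, 12.2 and 13.4 CPM in air lungs. On day 27 it had 11.3, 11.5 and 17.0 CPM in exposed lungs, against 12.1, 13.5 and 17.0 CPM in air lungs. Of the 8 exposed libraries of day 27, 7 lay below the air mean, and the remaining one, library 6, was as high as the highest air library.

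Bcl3 encodes an atypical IκB that works in the nucleus with p50 and p52. On day 7 it had 8.92, 11.5 and 12.4 CPM in exposed lungs, against 6.99, 9.36 and 12.6 CPM in air lungs. Of the 8 exposed libraries, 7 lay above the air mean, inside the air range. The averages were 11.1 ± 1.15 CPM in exposed lungs and 9.68 ± 2.15 CPM in air lungs (SD, n = 7 each), and the log2 fold change was 0.22 ± 0.11 (adjusted p 0.623, edgeR). It was 0.063 ± 0.096 on day 1 and -0.054 ± 0.12 on day 27.

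Whether the exposure effect itself differed between days was tested in a single fit of all 48 libraries, as the difference between the exposed-over-air fold changes. No member passed in any of the 3 contrasts. Between day 7 and day 1 the members passing were 0 of 10, where 0% of 14851 genes passed, between day 27 and day 1 0 of 10, where 0.498% passed, and between day 27 and day 7 0 of 10, where 0.0202% passed. The smallest p was that of Tnfaip2 between day 7 and day 1, with a difference of -0.32 ± 0.14 on the log2 scale (adjusted p 0.607, edgeR). The widest interval was again that of Tnf, from -1.03 to 0.64 for the same contrast.

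Some members differed between days, mostly in air lungs between days 7 and 27. Day and any difference in processing between days cannot be told apart, since each day was deposited as its own table. In air lungs on day 27 against day 7, 5 of 10 members differed, where 39.7% of all 14851 genes differed, so this share is near the background. The 4 that rose did so where 20% of all genes were higher, and the 1 that fell where 19.7% were lower. Birc3 had 12.1, 13.5 and 17.0 CPM on day 27, against 9.115, 10.6 and 12.5 CPM on day 7, a log2 difference of 0.40 ± 0.10 (adjusted p 0.00181, edgeR). The libraries of the days overlapped between 12.1 and 12.5 CPM. Nfkb2 had 62.0, 65.4 and 68.0 CPM on day 27, against 50.5, 58.3 and 60.4 CPM on day 7, a log2 difference of 0.19 ± 0.050 (adjusted p 0.00209). Its libraries of the 2 days did not overlap, and the share of all genes without overlap was not counted. Bcl3 rose by 0.36 ± 0.11 (adjusted p 0.00982) and Relb by 0.22 ± 0.089 (adjusted p 0.0459). The Relb call was lost with RLE factors (adjusted p 0.0524), with low genes kept (0.0615) and with DESeq2 (0.0506). Nfkb1 fell by 0.088 ± 0.033 (adjusted p 0.0303), with 151 ± 9.96 CPM on day 27 and 161 ± 4.03 CPM on day 7 (SD, n = 7 each).

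In air lungs on day 7 against day 1, 1 of 10 members differed, where 8.32% of all genes differed and 5.26% were higher. It was Tnfaip3, which had 22.9, 24.9 and 30.4 CPM on day 7, against 17.4, 21.2 and 23.5 CPM on day 1, a log2 difference of 0.28 ± 0.089 (adjusted p 0.0401). This call was lost when low genes were kept (adjusted p 0.0551) and when the alike pairs were summed (adjusted p 0.0650). In exposed lungs, 0 of 10 members differed on day 7 against day 1, where 2.14% of genes did, and 1 of 10 on day 27 against day 7, where 12.1% did and 6.36% were higher. That gene was Tnfaip2, with 31.4, 34.8 and 43.3 CPM in exposed lungs on day 27, against 22.1, 29.3 and 34.3 CPM on day 7, a log2 difference of 0.29 ± 0.097 (adjusted p 0.0446). The contrasts between days in exposed lungs were not rerun with other settings, so how far this call depends on them is not known. On day 1 Tnfaip2 had 30.1, 33.3 and 38.5 CPM in exposed lungs, and day 7 against day 1 gave -0.21 ± 0.097 (adjusted p 0.212, edgeR). In air lungs day 27 against day 7 gave Tnfaip2 0.20 ± 0.096 (adjusted p 0.0887), and the difference between the exposure effects of these 2 days was 0.084 ± 0.14 (adjusted p 0.802).

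**Figure D4:**
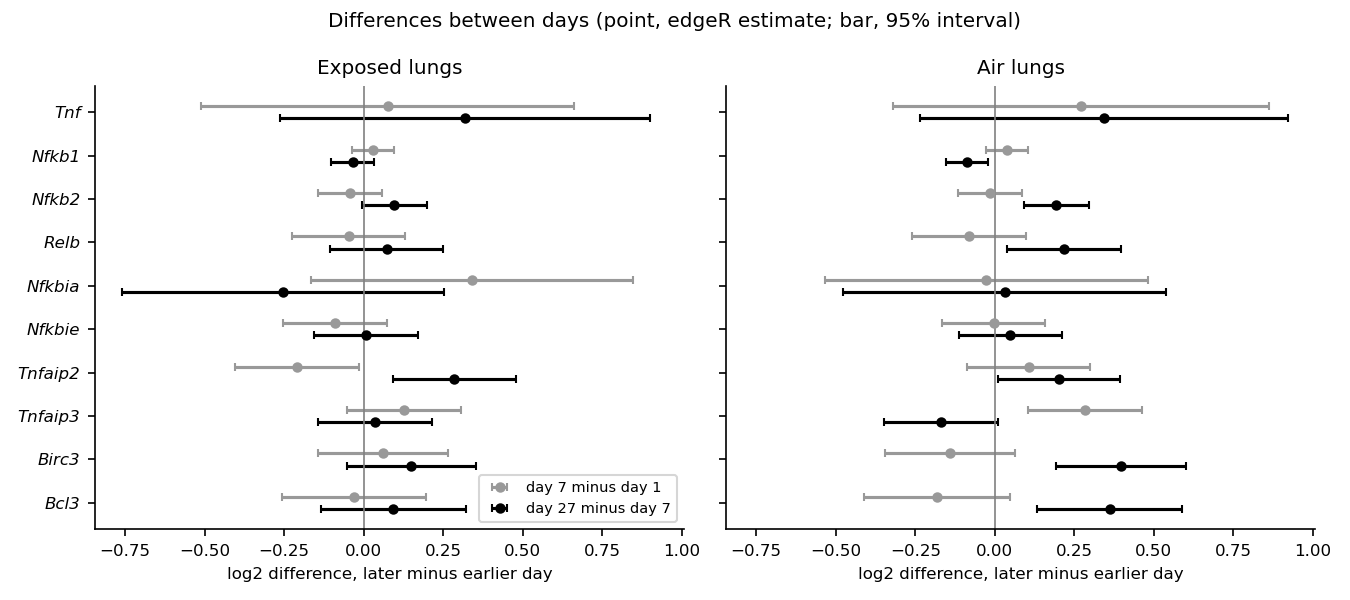
Log2 difference of each gene between days, later minus earlier, in exposed lungs (left) and air lungs (right), with the point as edgeR's estimate and the bar as its 95% interval. In air lungs the day 27 minus day 7 bars of Nfkb2, Relb, Birc3, Bcl3 and Tnfaip2 lie above 0 and that of Nfkb1 below it before adjustment, and in exposed lungs that of Tnfaip2 alone lies above 0.

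The rest of the pathway was read from 51 listed genes in 4 groups: receptors, adaptors and kinases, Rel subunits and other inhibitors, and other targets. None passed on days 1 and 7, and 3 did on day 27. On day 1, 0 of 49 tested genes passed, and 14.3% passed an unadjusted p under 0.05 (8.68% of all genes). On day 7, 0 of 48 passed, and 12.5% passed an unadjusted p under 0.05 (8.47% of all genes). On day 27, 3 of 49, or 6.12%, passed, all higher, where 2.18% of all genes were higher and 5.52% passed in either direction. The median log2 fold change of the tested list genes on day 27 was -0.012, against -0.0081 over all genes.

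The 3 genes that were higher in exposed than in air lungs on day 27 were a receptor, a kinase and a target. Chuk encodes IKKα, the kinase that triggers p100 processing. It had 67.1, 73.1 and 82.5 CPM in exposed lungs, against 59.1, 66.1 and 67.8 CPM in air lungs, a log2 fold change of 0.18 ± 0.044 (adjusted p 0.0333, edgeR). Its groups overlapped only between 67.1 and 67.8 CPM. Il1r1, the signalling receptor of interleukin-1, had 77.1, 86.9 and 93.5 CPM in exposed lungs, against 53.5, 72.1 and 82.5 CPM in air lungs (0.25 ± 0.071, adjusted p 0.0433). Cflar, which encodes the caspase-8 inhibitor cFLIP, had 48.3, 64.0 and 72.6 CPM in exposed lungs, against 37.1, 48.2 and 64.6 CPM in air lungs (0.35 ± 0.099, adjusted p 0.0465). These calls depended on the fit. With the alike pairs summed, none of the 3 passed (adjusted p 0.0644 for Chuk, 0.0801 for Il1r1 and 0.0879 for Cflar), nor did they with 1 surrogate variable in the fit (0.107, 0.147 and 0.139). Over the 16 fits without 1 library, Chuk passed in 6, Il1r1 in 5 and Cflar in 3, and all 3 stayed above 0.

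By group, 7 receptors, 16 adaptors and kinases, 10 Rel subunits and other inhibitors, and 16 of 18 other targets were tested on day 27. One receptor, 1 kinase, 0 of the Rel subunits and inhibitors and 1 target passed. Among the Rel subunits and inhibitors the smallest p on that day were those of Tnip1, a partner of A20, with 169 ± 6.08 CPM in exposed lungs (SD, n = 8) and 180 ± 10.6 CPM in air lungs (n = 7), and Zc3h12a, an RNase that trims inflammatory transcripts, with 16.1 ± 2.186 CPM in exposed lungs (n = 8) and 18.6 ± 2.53 CPM in air lungs (n = 7). Their adjusted p were 0.151 and 0.166.

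On day 1 the smallest p in each group belonged to genes that missed the threshold. Nfkbiz, which encodes the inducible nuclear IκBζ, had 17.2, 22.4 and 23.3 CPM in exposed lungs, against 13.4, 17.1 and 21.1 CPM in air lungs (log2 fold change 0.31 ± 0.091, adjusted p 0.352). Sod2, the mitochondrial superoxide dismutase, averaged 150 ± 17.0 CPM in exposed lungs (SD, n = 7) and 134 ± 8.89 CPM in air lungs (n = 8), with an adjusted p of 0.398. Bcl2a1, a survival gene, averaged 36.7 ± 4.93 CPM in exposed lungs and 32.0 ± 3.41 CPM in air lungs (adjusted p 0.411). The others were Tnip1, the adaptor Myd88, the ubiquitin ligase gene Birc2 and the receptors Tnfrsf1b and Cd40, with adjusted p between 0.459 and 0.712.

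On day 7 the smallest p of the lists was that of Map3k7, which encodes the kinase TAK1 upstream of the IκB kinases. It had 21.1, 27.2 and 29.9 CPM in exposed lungs, against 28.0, 32.4 and 43.3 CPM in air lungs (log2 fold change -0.37 ± 0.096, adjusted p 0.325). Cxcl1, a neutrophil-attracting chemokine, had 9.14, 13.4 and 16.1 CPM in exposed lungs, against 7.40, 9.87 and 13.3 CPM in air lungs (0.43 ± 0.13, adjusted p 0.404). Il1b, the cytokine interleukin-1β, had 19.5, 30.4 and 45.3 CPM in exposed lungs, against 14.1, 19.3 and 30.4 CPM in air lungs (0.49 ± 0.22, adjusted p 0.577). The groups overlapped for all 3 genes. The other genes named by the same rule were Tradd, Tnfrsf1a, Il1r1, Cyld and Zc3h12a, with adjusted p between 0.527 and 0.867.

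The members also varied between libraries of a group, and this variation was set against marker lists. For each of the 10 members and 8 lists, the log2 CPM of the gene and the mean log2 CPM of the list, both after subtracting the group mean, were compared over the 48 libraries, with a two-sided permutation test within groups (100000 resamples) and Benjamini-Hochberg adjustment over the 80 relations. Of the 80, 6 passed by both Pearson's r and Spearman's rho. The closest was between Nfkbia and the glucocorticoid response list, which holds genes such as Fkbp5 and Tsc22d3 that respond to corticosterone in rats. Pearson's r was 0.846 and Spearman's rho 0.858, both with a p of 1e-05, the smallest the resamples can give, and an adjusted p of 8e-04. Without the 2 libraries farthest from the median of the list, r was 0.886, and with the alike pairs averaged (44 libraries) it was 0.841. Within the 6 groups r ran from 0.431 to 0.980, with the lowest in exposed lungs of day 27. The libraries share tissue piece, handling and depth with the list values, and none of these was varied.

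Tnfaip2 followed the alveolar macrophage list, with r = 0.607 and rho = 0.665 (p = 2e-05 and 3e-05, adjusted p 8e-04 and 0.0012 by the permutation test). Without the 2 farthest libraries r was 0.623, and within the 6 groups it ran from 0.329 to 0.876. Tnfaip2 ran against the glucocorticoid list, with r = -0.490 and rho = -0.541 (p = 4e-05 and 7e-05, adjusted p 0.00107 and 0.00187), r = -0.459 without the 2 farthest, and -0.869 to -0.219 within groups. Bcl3 followed the lung epithelial list, with r = 0.539 and rho = 0.560 (p = 0.00012 and 0.00018, adjusted p 0.0024 and 0.0036), r = 0.544 without the 2 farthest, and 0.4997 to 0.729 within groups. Nfkbie followed the neutrophil list, with r = 0.466 and rho = 0.486 (p = 0.00174 and 0.00082, adjusted p 0.0255 and 0.0131), r = 0.507 without the 2 farthest, and 0.277 to 0.719 within groups. Relb followed the endothelial list, with r = 0.429 and rho = 0.470 (p = 0.00239 and 0.00118, adjusted p 0.0273 and 0.0157), r = 0.397 without the 2 farthest, and 0.243 to 0.697 within groups.

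**Figure D5:**
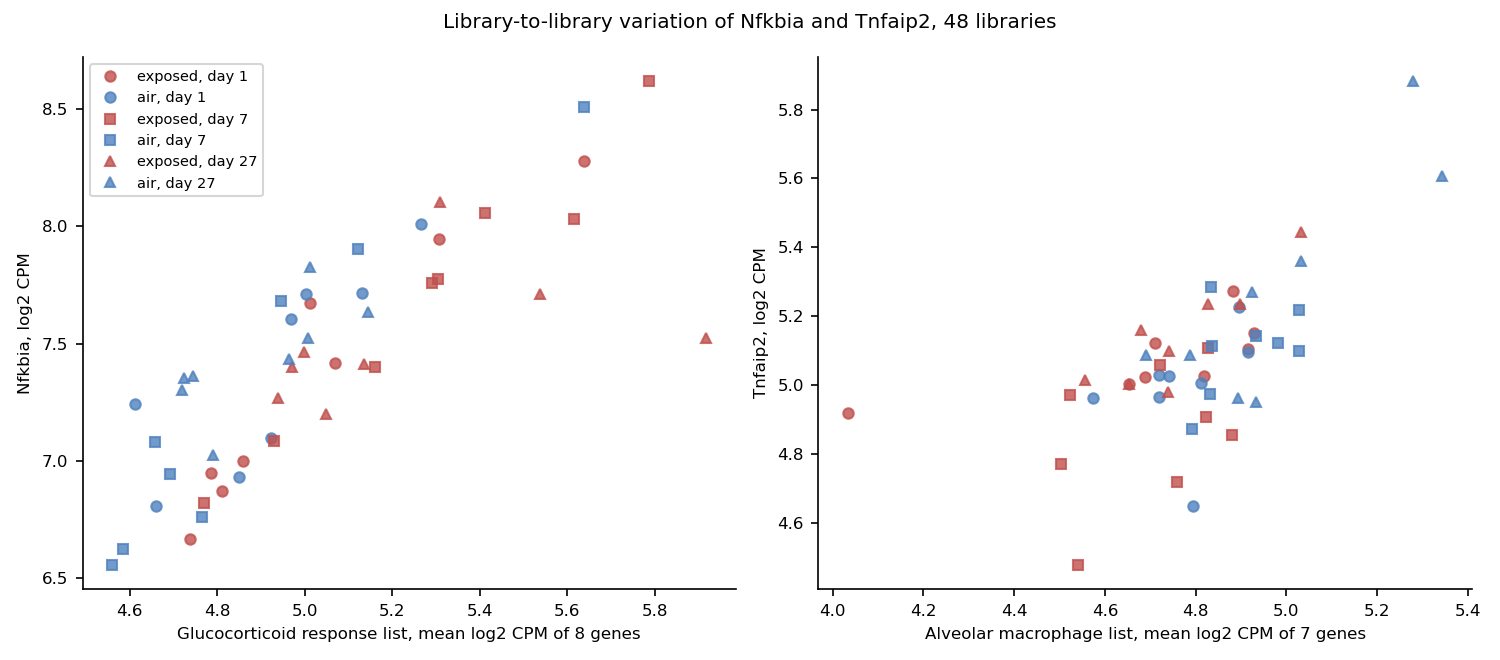
Left, log2 CPM of Nfkbia against the mean log2 CPM of the glucocorticoid response list, and right, log2 CPM of Tnfaip2 against that of the alveolar macrophage list, 1 point per library (red, exposed; blue, air; shapes, days). Most points of the 6 groups lie along a rising band in both panels, and after subtracting group means Pearson's r was 0.846 on the left and 0.607 on the right.

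Between members, 2 of 45 pairs passed in the same kind of test. Nfkb2 and Relb, the partners of the non-canonical branch, had r = 0.590 and rho = 0.560 (p = 4e-05 and 0.00017, adjusted p 0.0018 and 0.00607), with r = 0.579 without the 2 farthest libraries and -0.136 to 0.844 within groups, lowest in air lungs of day 27. Nfkbia and Tnfaip2 had r = -0.424 and rho = -0.497 (p = 0.00052 and 0.00027, adjusted p 0.0117 and 0.00607), with r = -0.453 without the 2 farthest and -0.762 to 0.0035 within groups. The median r over the 45 pairs was 0.122, and r ran from -0.424 to 0.590.

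For each member the 3 genes most alike over the 48 libraries were taken by Pearson's r of the same values, as a description with no test. Those of Nfkbia were Ddit4 (0.970), Cebpd (0.922) and Tmem252 (0.904). Those of Bcl3 were Muc1 (0.729), Anpep (0.720) and Litaf (0.644). Those of Nfkbie were Tnfaip8l2 (0.675), Themis2 (0.663) and Il1rn (0.663). For the remaining members the highest r was lower: Dpysl3 for Tnfaip3 (0.659), Rnf10 for Nfkb2 (0.653), Nolc1 for Relb (0.622), Ets2 for Tnfaip2 (0.605), Brd2 for Birc3 (0.567), Nfkbiz for Tnf (0.565) and Reck for Nfkb1 (0.560). Of the 10 members, Relb alone had another member among its 3, Nfkb2 (0.590).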

How the data were processed

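Gene-level expected counts of 48 rat lung libraries were used as deposited, in 3 tables, 1 per day. Libraries were made with the TruSeq Stranded mRNA kit, per the labels' protocols, which name no batch. The submitters' processing notes name bcl2fastq 2.19, Trim Galore 0.6.7, cutadapt 3.4, STAR 2.6.1d, Salmon 1.10.1 and the build Rnor_6.0. Of the deposited expected counts, 5.58% were not whole (tolerance 1e-06), as when reads are shared between similar transcripts, and all were rounded. The 2 identifiers of Tnf were summed, a choice made after seeing their values, and 4671 identifiers share a name with another.

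Each day was tested with edgeR 4.0.16 in R 4.3.3 (TMM, filterByExpr, robust quasi-likelihood F test, Benjamini-Hochberg over all genes, threshold 0.05) on 8 exposed and 8 air libraries, and a fit of all 48 libraries with 6 group means gave the contrasts between days. SE is the size of the log2 fold change over the root of F. Alternatives were RLE factors, other filters, DESeq2 1.42.0, limma-voom (limma 3.58.1), 1 surrogate variable (sva 3.50.0), all libraries in one fit, alike pairs summed and each library left out. All members are reported, in full for the 3 smallest p per day; of the pathway lists, genes past the threshold or, where a list had none, its 2 smallest p. The members and lists were chosen with earlier results of these data known. Promoter sequences are RefSeq's, GRCr8, and no coordinate was converted. The edgeR p-values set a difference between groups against the spread between libraries, with the alike pairs counted as separate libraries in the main setting.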

Additional observations from a re-analysis of the deposited data

Results flagged for a closer look

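One of the 60 sets of 8 libraries (10 genes in 6 groups) held a library far from the rest by Dixon's criterion, where chance gives about 5% of sets. It was Birc3 in exposed lungs of day 27: library 6 had 17.0 CPM and the next highest had 13.6 CPM, a gap of 0.589 of the group's range, above the critical value for 8 libraries.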

How the results depend on the processing

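Under each alternative run the members passing were 0 of 10 on days 1 and 7. Of 923 recomputed log2 differences of members, 917 kept their side of the threshold, 5 lost a call, 1 gained one, and no called one changed sign. The contrasts between days in exposed lungs were not among those recomputed. The background moved far more: the genes passing were 4 on day 1 (42 with DESeq2, 14 with all 48 libraries in one fit, 2 with no filter, 1 with 1 surrogate variable, 0 with the alike pairs summed, 0 to 17 without 1 library), 0 on day 7 (18 with DESeq2, 1 with all 48 libraries in one fit, 0 to 11 without 1 library) and 783 on day 27 (474 with no filter, 1609 with DESeq2, 73 with 1 surrogate variable, 2227 with all 48 libraries in one fit, 31 with the alike pairs summed, 9 to 1926 without 1 library). The members passing on day 27 were 0 under each alternative but one: without 1 library it ran from 0 to 1 (Nfkb2 without exposed library 2). The 3 other pathway genes of day 27 became 1 with no filter on low counts (Chuk), 5 with DESeq2, 5 with all 48 libraries in one fit, 0 with 1 surrogate variable and 0 with the alike pairs summed, and ran from 0 to 6 without 1 library. They were 0 without air library 3, 6, 7 or 8 or exposed library 1, 3, 6, 7 or 8, 1 without air library 5 (Cxcl1) or exposed library 5 (Chuk), 5 without exposed library 2 and 6 without air library 2, and the cause was not tested. The member that differed in air lungs on day 7 against day 1 (1 in the main setting) became 0 with no filter and 0 with the alike pairs summed, and of the 5 that differed on day 27 against day 7, between 4 and 5 did under the alternatives, Relb being lost with RLE factors (adjusted p 0.0524), no filter (0.0615) and DESeq2 (0.0506). No paired analysis was possible because the labels number each animal once and pair no exposed with an air animal. The widest intervals were those of Tnf, with 8 to 46 counts per library and a within-group SD of 0.58 (log2), and of Nfkbia, with an SD of 0.50.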
